A study of Mus musculus with 20 samples.

Results

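miR-191 and miR-425 are microRNAs made from 2 hairpins that lie next to each other on mouse chromosome 9. Every deposited row named for either hairpin was taken, with any arm suffix and also inside joined names. This gave 4 rows of the 1509 listed in either kind of file, mmu-miR-191-5p, mmu-miR-191-3p, mmu-miR-425-5p and mmu-miR-425-3p (the mouse prefix mmu is dropped from here on), and 0 of them stood in a joined name. The small RNAs came from livers of C57BL/6 mice aged 6 weeks, 5 of the PiZ genotype and 5 wild-type (WT). PiZ is known as a mouse model in which a human transgene encodes the Z form of alpha-1 antitrypsin, a protease inhibitor that hepatocytes then fail to secrete well, while the mouse's own genes remain. No other allele or agent is given for either group, and the sources used here do not give the sex of the mice. The 2 technical runs of a library were added together, so the mouse is the replicate.

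A microRNA hairpin is cut from a longer primary transcript and then trimmed to a short duplex, of which one strand, the 5p or the 3p arm, is usually kept in Argonaute and the other is usually lost. The kept strand pairs with messenger RNAs mainly through its seed, bases 2 to 8. miR-191-5p is found in most tissues and is in common use as a reference for normalising other microRNAs in quantitative PCR, so its level across genotypes bears on such use in liver. miR-425-5p comes from the same locus and can be cut from the same primary transcript.

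The mature sequences of all 4 arms are shown first because the arms are counted separately and the seeds set them apart; the seed is in capitals. The sequence of miR-489-3p is added because it was the other mature mouse microRNA in the RefSeq table with the seed of miR-425-5p. The hairpins follow, with both mature arms in capitals. All are RNA sequences from RefSeq on GRCm38.p6, written 5′ to 3′.
miR-191-5p: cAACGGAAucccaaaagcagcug
miR-191-3p: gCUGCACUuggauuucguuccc
miR-425-5p: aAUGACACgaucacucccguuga
miR-425-3p: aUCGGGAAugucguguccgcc
miR-489-3p: aAUGACACcacauauauggcagc
Mir191: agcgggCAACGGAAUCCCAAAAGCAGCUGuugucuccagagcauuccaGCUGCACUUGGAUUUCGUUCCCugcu
Mir425: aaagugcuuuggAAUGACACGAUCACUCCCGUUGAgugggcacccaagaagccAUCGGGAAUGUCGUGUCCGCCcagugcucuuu

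The seeds of miR-191-5p, miR-191-3p and miR-425-3p were shared with 0 other mature microRNAs of that table, and the 4 arms share no seed among themselves. The longest run of identical bases between any miR-191 arm and any miR-425 arm was 5 bases. miR-489-3p shares a run of 8 bases with miR-425-5p and differs at 11 of 23 positions when aligned from the 5′ end. It had 1 read in PiZ mouse 4 and 0 reads in the other 9 libraries, so miR-425-5p was the member of that seed group seen in these livers. All counts of the 4 arms were whole numbers.

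Both hairpins are on the plus strand of GRCm38. Mir191 spans chr9:108568319-108568392 (74 bases) and Mir425 spans chr9:108568777-108568861 (85 bases), with 384 bases between them. In GENCODE M21 both lie within exon 1 of the single-exon transcript 4833445I07Rik-201, of a long non-coding gene tagged as a host of small RNAs. In the spliced transcript 4833445I07Rik-202, Mir191 falls in the intron between exon 1 and exon 2. In the same annotation the protein-coding gene Dalrd3 starts 1024 bases after Mir425, whereas the RefSeq gene Dalrd3 contains both hairpins. GENCODE also lists a predicted microRNA gene, Gm24083, on the minus strand across all 74 bases of Mir191. The deposited files hold no coordinates and name no build, so these positions describe the reference and not the counting.

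Library totals ranged from 1307857 to 10780801 reads. The files hold 2 lists of microRNAs, one of 1399 (PiZ mice 1 and 2, WT mice 1 to 3) and one of 990 (PiZ mice 3 to 5, WT mice 4 and 5), and all 4 arms are on both. The shorter list goes with the deeper libraries, so the list and the depth cannot be told apart, and the list was a term of the model. Hepatocyte markers were detected, with 5 of 5 present. Their summed level was 62376 and 86763 CPM (reads scaled to a library of 1000000) in WT mice 1 and 3, and 213334 to 239151 CPM in WT mice 2, 4 and 5. In PiZ mouse 5 it was 250751 CPM, and in PiZ mice 1 to 4 it was 122325 to 166533 CPM. WT mice 1 and 3 and PiZ mouse 5 were also the 3 libraries with the highest miR-191-5p. Results that rest on these 3 libraries are given with and without them, a choice made with their values known. Most of the hepatocyte sum was miR-192-5p, which averaged 144502 CPM over all mice. Among the WT mice its mean was 137200 CPM with an SD of 78490 CPM. miR-122-5p, of the same list, varied far less there, with a mean of 13000 CPM and an SD of 1121 CPM. It therefore did not fall in proportion to the sum in WT mice 1 and 3, and the sum mainly follows miR-192-5p. In bulk liver, fewer cells of a type and less of a microRNA per cell cannot be told apart.

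The first question was whether the arms differ between PiZ and WT liver. No difference was detected for any of the 4 arms, all of which passed the filter on low counts. By edgeR's quasi-likelihood test, 0 of 4 passed at 0.05 after Benjamini-Hochberg adjustment and 0 of 4 were under 0.05 before it. The count by DESeq2 was also 0 of 4. Over all microRNAs, edgeR called 31 of the 336 tested, which is 9.23% (28 higher in PiZ, 8.33%, and 3 lower, 0.893%), so a count of 0 among 4 is near that background. The intervals given with each arm show which sizes of change were left undetected.

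miR-191-5p, the kept strand of its hairpin, ranked 16 of 336 by mean level. It stood at 8186, 6879, 7563, 7927 and 12852 CPM in PiZ mice 1 to 5 and at 12051, 8878, 10908, 8387 and 7821 CPM in WT mice 1 to 5. In these TMM-scaled CPM, PiZ mouse 5 was the highest of all 10 and WT mice 1 and 3 were next. The remaining mice of both genotypes lay between 6879 and 8878 CPM, so the groups overlapped. As unscaled shares of reads, PiZ mouse 5 (1.099%) came after WT mice 1 and 3 (1.297% and 1.277%). PiZ livers had a mean of 8681 ± 2383 CPM and WT livers one of 9609 ± 1794 CPM (SD, n = 5 each). The log2 fold change was -0.14, SE 0.23 (adjusted p = 0.783, edgeR), and 2 SE on either side span -0.60 to 0.33. Changes within that span are left undecided by these mice. Without PiZ mouse 5 the log2 fold change was -0.27, and without WT mice 1 and 3 it was -5.35e-04 (adjusted p = 0.367 and 1.00, edgeR).

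miR-425-5p, the kept strand of the second hairpin, was far less abundant and ranked 97 of 336. It stood at 149.9, 120.7, 168.4, 134.6 and 139.1 CPM in PiZ mice 1 to 5 and at 171.2, 122.2, 182.2, 99.63 and 118.3 CPM in WT mice 1 to 5. All 5 PiZ mice fell within the range of the WT mice, whose highest values were again in WT mice 1 and 3. PiZ livers had a mean of 142.5 ± 17.9 CPM and WT livers one of 138.7 ± 35.9 CPM (SD, n = 5 each). The log2 fold change was 0.11, SE 0.22 (adjusted p = 0.812, edgeR), with 2 SE on either side spanning -0.34 to 0.55. Without WT mice 1 and 3 the log2 fold change was 0.29 (adjusted p = 0.318, edgeR).

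**Figure D1:**
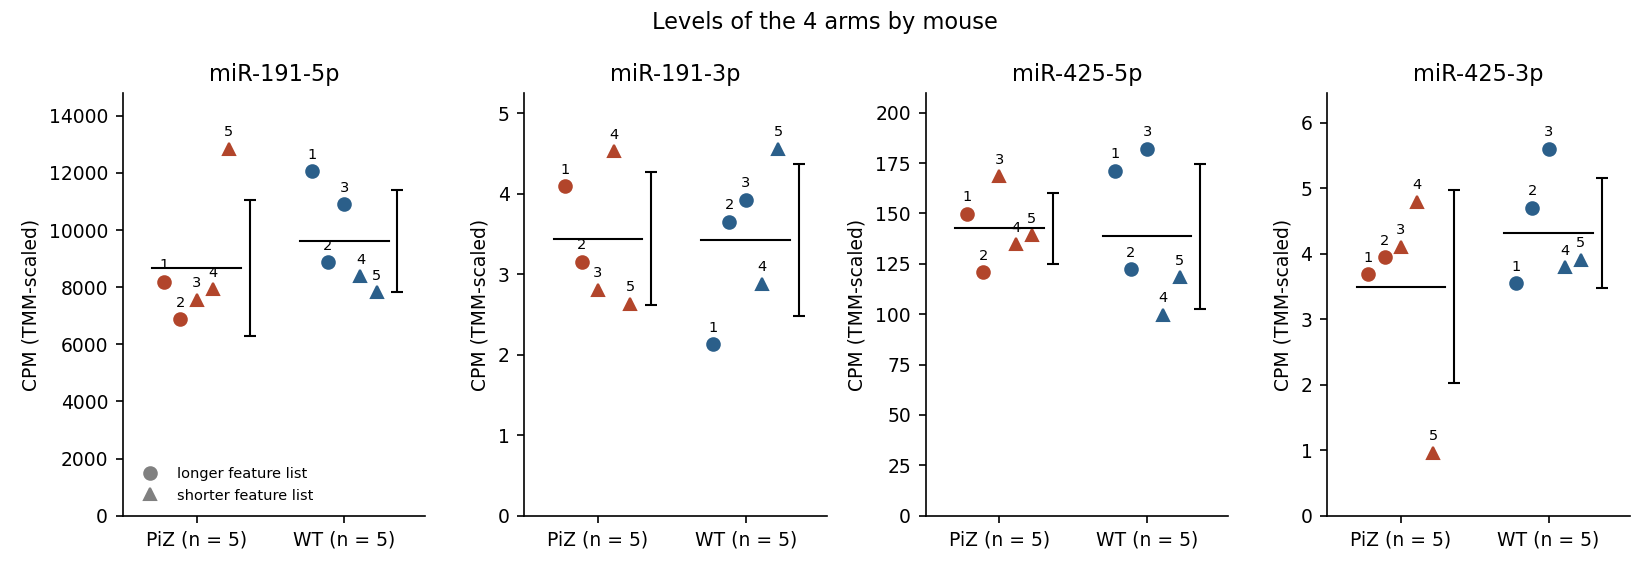
Levels of the 4 arms in each mouse, in TMM-scaled CPM from 0 on linear axes; numbers are mouse numbers, circles and triangles mark the longer and shorter feature lists, lines are group means and bars beside them 1 SD (n = 5 each). For miR-191-5p, PiZ mouse 5 at 12852 CPM lies above the other PiZ mice, and for miR-425-3p it lies lowest, at 0.957 CPM.

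The 3p arms were near the limit of counting. miR-191-3p had 197 reads over all 10 mice, from 3 to 51 per library, with a mean of 3.44 ± 0.830 CPM for PiZ and of 3.43 ± 0.944 CPM for WT mice (SD, n = 5 each). Its log2 fold change was -0.04, SE 0.31 (adjusted p = 0.963, edgeR), with 2 SE on either side spanning -0.67 to 0.58. miR-425-3p had 207 reads, from 5 to 54 per library, with a mean of 3.50 ± 1.48 CPM for PiZ and of 4.31 ± 0.842 CPM for WT mice (SD, n = 5 each). Its log2 fold change was -0.25, SE 0.41 (adjusted p = 0.778, edgeR), with 2 SE on either side spanning -1.06 to 0.57. In PiZ mice 1 to 5 it was 3.69, 3.94, 4.11, 4.80 and 0.957 CPM, so PiZ mouse 5 lay below every other library, of which the lowest was WT mouse 1 at 3.55 CPM. That low value rests on 8 reads in a library of 9775091.

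The 2 hairpins can come from 1 transcript, so the balance of their main arms was compared as a readout of its own. miR-191-5p reads outnumbered miR-425-5p reads 64.7-fold (geometric mean over 10 mice). The ratio was 54.5, 56.9, 44.9, 58.9 and 92.4 in PiZ mice 1 to 5 and 70.3, 72.5, 59.8, 84.1 and 66.1 in WT mice 1 to 5. PiZ mice 1 to 4 lay below all WT mice, and PiZ mouse 5 lay above all of them. On the log2 scale PiZ mice averaged 5.90 ± 0.383 and WT mice 6.13 ± 0.181 (SD, n = 5 each), and the PiZ minus WT difference of -0.23 did not pass (exact two-sided permutation test, p = 0.270, adjusted p = 0.417 over the 3 ratios tested).

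That outcome rested on PiZ mouse 5. Without it the difference was -0.39, a ratio 0.763 times that of WT (exact two-sided permutation test, 4 against 5 mice, p = 0.0159, adjusted p = 0.0476 over 3 ratios), with 4 of 4 PiZ mice below all WT mice. The gap between the groups was then narrow, from 58.9 in PiZ mouse 4 to 59.8 in WT mouse 3. Without WT mice 1 and 3 alone, the difference was -0.31 (exact p = 0.25). Without these and PiZ mouse 5 it was -0.47 (exact p = 0.0286, adjusted p = 0.0857, where 0.0286 is the smallest p that 4 against 3 mice can give). Within the longer list the difference was -0.27 (exact p = 0.2) and within the shorter list -0.25 (exact p = 0.5). With 2 mice against 3, an exact p cannot go below 0.1. Neither arm alone passed without PiZ mouse 5 (miR-191-5p -0.27, miR-425-5p 0.13; adjusted p = 0.367 and 0.753, edgeR). PiZ mouse 5 was left out with its values known, as the only PiZ mouse above all WT mice. A larger difference was thus bound to follow. With any other single mouse left out, exact p was 0.1905 to 0.5159 (exact two-sided permutation test). The adjusted p of 0.0476 does not cover this choice of mouse. By the rule for far values given below, PiZ mouse 5 was not flagged for this ratio. The difference without it only describes these 9 mice.

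**Figure D2:**
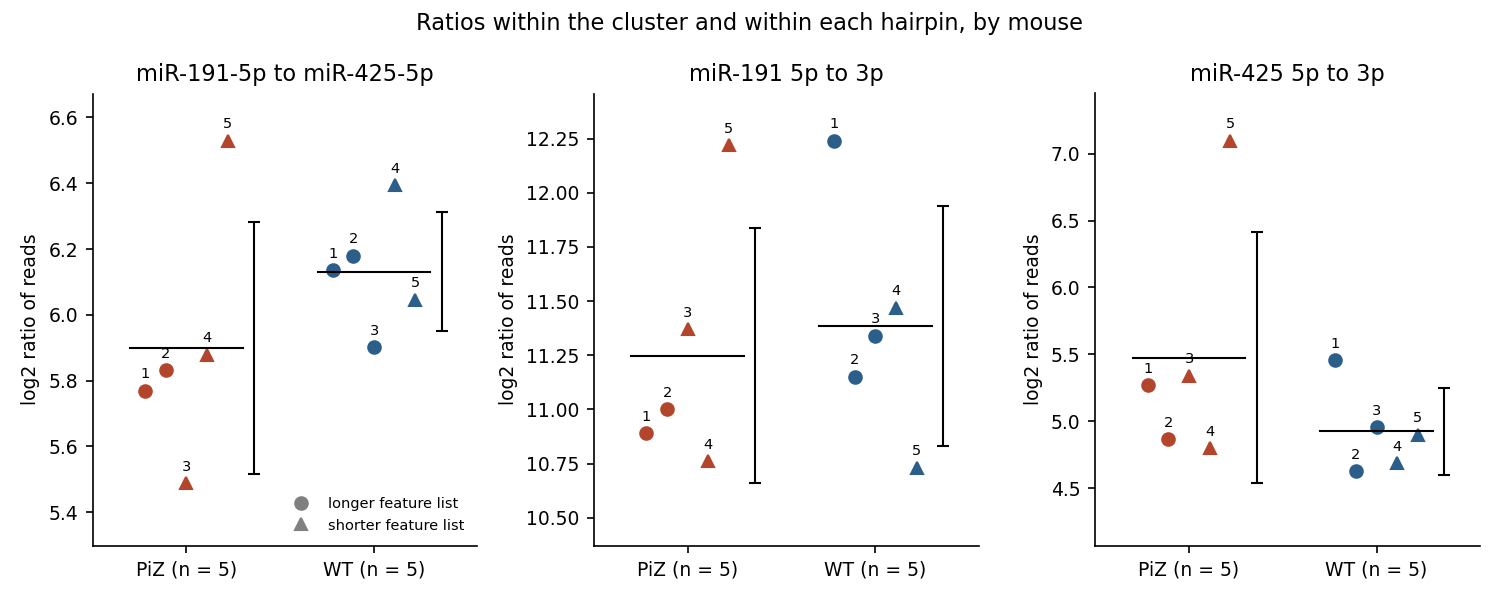
Log2 ratios of reads with a pseudocount of 0.5, for miR-191-5p to miR-425-5p and for the 5p to 3p arm of each hairpin, by mouse; axes do not start at 0, numbers are mouse numbers, circles and triangles mark the longer and shorter feature lists, lines are means and bars 1 SD (n = 5 each). In the first panel PiZ mice 1 to 4 lie below every WT mouse and PiZ mouse 5 above them, and in the third PiZ mouse 5 stands far above all other mice.

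Neighbouring hairpins elsewhere gave a frame for these values. Of 27 pairs of neighbours on 1 strand with at most 1000 bases between them, each hairpin represented by its most abundant tested arm, 2 had a larger mean imbalance than the 64.7-fold of this pair, and the median was 5.12-fold. The SD of the log2 ratio over the 10 mice was 0.308 here, against a median of 0.574, and 22 of the pairs had a larger one. The correlation of log2 CPM within the pair was 0.443 here, against a median of 0.605, and 8 of the pairs had a lower one. Without PiZ mouse 5 and WT mice 1 and 3, the SD was 0.296 against a median of 0.444, and the correlation -0.21 against a median of 0.771, with 1 pair lower. These are descriptions of pairs that differ in length, level and sequence. Some pairs share a member, some hold an arm of few reads, and in some both members differed between PiZ and WT. The medians therefore do not come from like or independent pairs.

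The balance of arms within each hairpin was compared next. miR-191 was almost wholly 5p, with 490311 reads of the 5p and 197 of the 3p arm over all mice, a 2483-fold excess that ranked 5 among 81 hairpins with at least 1000 reads of one arm. miR-425 was less one-sided, with 7577 and 207 reads, a 36.5-fold excess that ranked 48, and the median hairpin had 89.0-fold. The log2 ratio of 5p to 3p did not pass for miR-191 (PiZ mice 11.2 ± 0.588, WT mice 11.4 ± 0.556, SD, n = 5 each, difference -0.14, exact two-sided permutation test, p = 0.698, adjusted p = 0.698). It did not pass for miR-425 either (PiZ mice 5.47 ± 0.937, WT mice 4.92 ± 0.328, SD, n = 5 each, difference 0.55, exact two-sided permutation test, p = 0.278, adjusted p = 0.417).

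The 3p arm made up 2.40%, 3.16%, 2.38% and 3.44% of miR-425 reads in PiZ mice 1 to 4 and 2.03% to 3.70% in WT mice. In PiZ mouse 5 it made up 0.684% (95% Clopper-Pearson interval 0.296% to 1.34%). The intervals of PiZ mouse 1 (1.10% to 4.51%) and WT mouse 1 (0.663% to 4.68%) overlapped it, and those of the remaining 7 mice lay above it, the nearest starting at 1.44% (WT mouse 3). These intervals cover counting error only, since reads without molecular identifiers are not independent molecules. Without PiZ mouse 5 the 5p to 3p difference of miR-425 was 0.14 (exact two-sided permutation test, p = 0.5). For miR-191 the 3p share was 0.0205% in PiZ mouse 5 and 0.0371% to 0.0571% in the other PiZ mice, within the 0.0177% to 0.0583% of the WT mice.

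Levels of the 2 main arms were then compared across mice. The correlation of log2 CPM between miR-191-5p and miR-425-5p did not pass over 10 mice (Pearson r = 0.443, permutation p = 0.198; Spearman rho = 0.394, permutation p = 0.265). Without PiZ mouse 5 and WT mouse 1, the mice farthest from the median of miR-191-5p, r was 0.414 (permutation p = 0.317). Of the residuals from genotype and file list, r was 0.515 (permutation p = 0.126) and rho 0.685 (permutation p = 0.0338). Residuals of 1 fit depend on each other, so shuffling them gives approximate p-values that may be too small. Without WT mice 1 and 3, r was 0.07 (permutation p = 0.853), and without PiZ mouse 5 as well it was -0.21 (7 mice, permutation p = 0.658). WT mice 1 and 3 were high for both arms. Without WT mouse 1 alone r was 0.313, and without WT mouse 3 alone it was 0.341. Whether these values of r differ from 0.443 was not tested. Neither file list holds the 6 mice needed for a value of its own. This was the single relation tested, in several versions, and its p-values are not adjusted for their number.

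**Figure D3:**
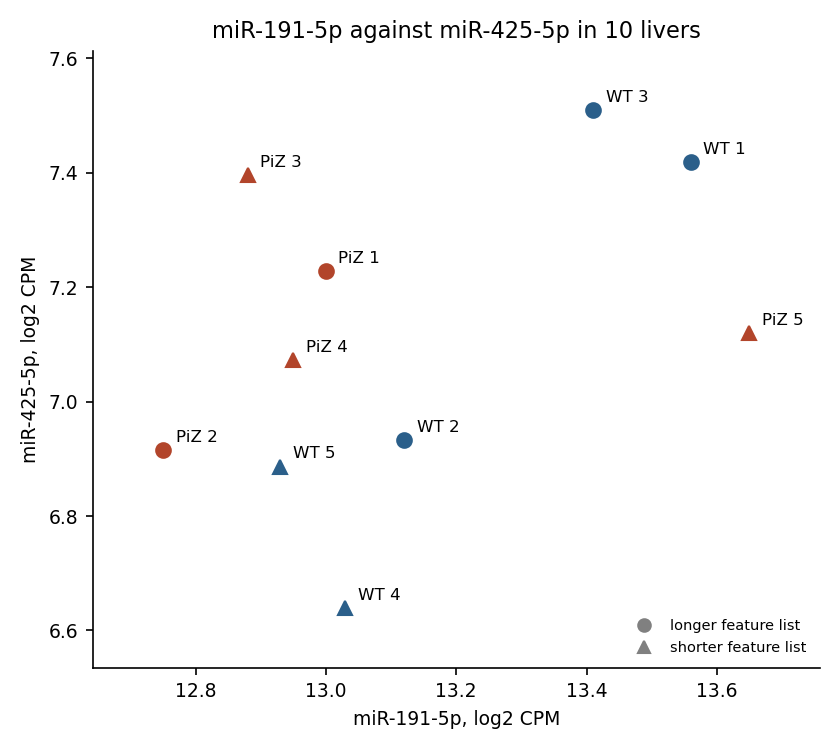
miR-191-5p against miR-425-5p, both in log2 CPM, with 1 point per liver, red for PiZ and blue for WT, circles for the longer and triangles for the shorter feature list. WT mice 1 and 3 lie at the upper right, and PiZ mouse 5 has the highest miR-191-5p with a middling miR-425-5p.

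Among 335 other tested microRNAs, miR-425-5p ranked 95 in likeness to miR-191-5p (r of log2 CPM over the 10 mice). The 3 most alike were miR-125b-5p (r = 0.970), miR-100-5p (r = 0.934) and miR-221-5p (r = 0.906). miR-125b-5p was 1734, 1663 and 1420 CPM in WT mouse 1, PiZ mouse 5 and WT mouse 3, and 604.9 to 767.5 CPM in the other mice, so the same 3 libraries were high. Without those 3 libraries its r was 0.750 and its rank 15, those of miR-100-5p were 0.688 and 19, and those of miR-221-5p were 0.821 and 8. For miR-425-5p the most alike were miR-200b-3p (r = 0.830), miR-1198-5p (r = 0.823) and miR-484 (r = 0.807), and miR-191-5p ranked 54. miR-484 was highest in WT mice 1 and 3, at 310.3 and 241.6 CPM, against 131.9 to 185.4 CPM elsewhere. Without the same 3 libraries, r with miR-425-5p was 0.711 for miR-200b-3p (rank 53), 0.655 for miR-1198-5p (rank 67) and 0.832 for miR-484 (rank 18). These likenesses were picked as the highest of many and share libraries and depth, so they are descriptions.

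Marker microRNAs of other cell types that liver tissue can hold were summed in each mouse. In CPM, erythroid markers (4 of 4 detected) ranged from 310.7 to 1752 in PiZ and from 259.5 to 1072 in WT liver, and leukocyte and platelet markers (7 of 7) from 2075 to 3138 and from 1060 to 2266. Endothelial markers (2 of 2) ranged from 23375 to 28821 in PiZ and from 7843 to 41310 in WT liver, lowest in WT mice 1 and 3. Mesenchymal markers (5 rows for 6 names) ranged from 9882 to 14794 and from 5732 to 16871, again lowest in WT mice 1 and 3. Biliary epithelial markers (5 of 5) ranged from 178.7 to 315.7 in PiZ and from 189.7 to 281.4 in WT liver. Pancreas markers (4 of 4) ranged from 12.2 to 80.9 in PiZ and from 5.74 to 17.0 in WT liver. Of these 4, 2 passed as higher in PiZ (edgeR), where 8.33% of all tested did. Their log2 fold changes ran from -0.08 to 8.02, 3 positive and 1 negative. In each other cell type list 0 members passed (edgeR). No list had a row at 0 in every mouse, and the part of these cells in the levels of miR-191 and miR-425 was not tested.

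Because miR-191-5p is in use as a reference, its spread was set beside that of 13 other microRNAs used in that way. The SD of log2 CPM over the 10 mice was 0.305 for miR-191-5p and 0.277 for miR-425-5p, ranks 40 and 25 from the smallest among 336, where the median was 0.549. Among tested microRNAs with a mean of at least 100 CPM they ranked 29 and 17, against a median SD of 0.411. With library totals only, the SD of miR-425-5p was 0.383 and its rank 71 of 336. Set among the 13, miR-191-5p ranked 6 and miR-425-5p ranked 5 of 14. Without PiZ mouse 5 and WT mice 1 and 3, which had the highest miR-191-5p, the SD of miR-191-5p over 7 mice was 0.117 (rank 12 of 336, 4 of 14) and that of miR-425-5p was 0.247 (rank 68 of 336, 7 of 14), where the median was 0.36. Leaving out its highest mice was bound to lower the SD of miR-191-5p. The microRNAs it was ranked against were not trimmed of their own extremes, so this rank is no like comparison. The order of the 2 arms by spread turned without these libraries, and also with the scaling over all 10 mice. With DESeq2 size factors the SD was 0.2834 for miR-191-5p and 0.2949 for miR-425-5p, and with library totals only 0.3265 and 0.3834. With upper-quartile scaling the order held, at 0.3519 and 0.2972. The smallest spread of the reference list was that of miR-186-5p (SD 0.151) and the largest that of miR-30e-5p (SD 0.550, at 4.91 CPM).

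**Figure D4:**
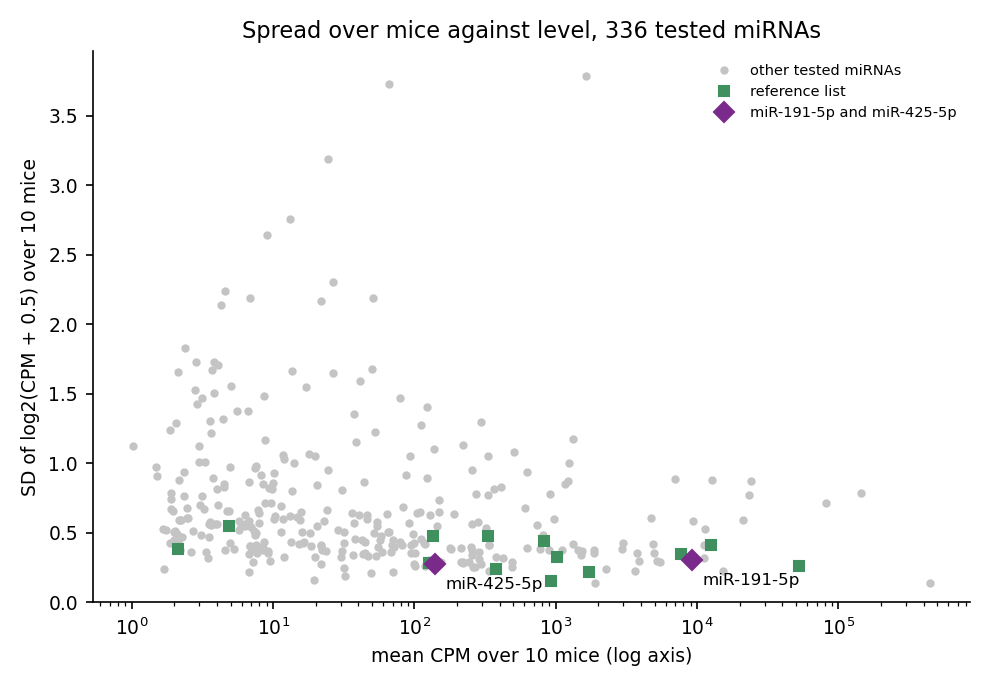
SD of log2(CPM + 0.5) over the 10 mice against mean CPM (log axis) for the 336 tested microRNAs, with the reference list as green squares and miR-191-5p and miR-425-5p as purple diamonds. Both diamonds lie low in the cloud, at 0.305 and 0.277, among the reference list and not below it, over all 10 mice.

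Of the 13 reference microRNAs, 0 passed between PiZ and WT (edgeR), where 9.23% of all tested did. 11 of them had a negative and 2 a positive log2 fold change, with a median of -0.18 beside 0.06 over all tested. miR-92a-3p, of the miR-17/92 cluster, had the most negative at -0.61 (adjusted p = 0.167, edgeR) and miR-24-3p the one nearest 0 at -0.10 (adjusted p = 0.792). miR-191-5p, at -0.14, lay within the range of the list, and miR-425-5p, at 0.11, had the sign of its minority.

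Lastly the genotype effect was compared between the 2 file lists. For miR-191-5p the log2 fold change was -0.51 (SE 0.38) in the longer and 0.18 (SE 0.23) in the shorter list alone, and for miR-425-5p -0.24 (SE 0.38) and 0.42 (SE 0.22). The difference, shorter minus longer, was 0.66, SE 0.41 for miR-191-5p and 0.61, SE 0.39 for miR-425-5p (adjusted p = 0.882 for both, edgeR). 0 of 372 microRNAs tested passed (0%) in edgeR and 0 in DESeq2, with 16 at an unadjusted p under 0.05 in each. The WT mice of the longer list include WT mice 1 and 3, the 2 with the highest WT levels of both arms.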

How the data were processed

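The deposited files give, per the file headers, counts per mature microRNA for 20 runs of 10 libraries. They are estimated counts, since some values in the deposited files are fractions. Libraries were made with the TruSeq small RNA kit per the labels' protocols, and the submitters' processing notes name CASAVA. The sources used here do not give the aligner, microRNA release, build or treatment of multiply mapped reads. Runs were summed and rounded to whole numbers. The 880 microRNAs on both lists held over 99.999% of reads in each library and were used. filterByExpr kept 336, scaled by TMM and tested in edgeR 4.0.16 (quasi-likelihood, file list and genotype, Benjamini-Hochberg over all tested), with SEs as the fold change over the square root of F. CPM use TMM-scaled totals. Ratios were log2 of reads plus 0.5, tested with exact permutation over mice. Correlations used 100000 resamples. Alternatives used DESeq2 1.42.0 and limma 3.58.1 in R 4.3.3, with scipy 1.17.1 and matplotlib 3.10.9 in Python 3.11.15. The steps were tested on simulated data.

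The members, lists and alternatives were chosen with earlier results of these data known. MicroRNAs named beyond the members are the 3 most alike to each main arm, those of the reference list with the smallest and largest spread and the most and least change, and those sharing a seed. miR-192-5p and miR-122-5p, of the hepatocyte list, were named after their values were seen. Labels name each mouse separately. Alternatives covered scaling, filters, tests, terms, runs, file lists and each mouse left out. Leaving out PiZ mouse 5 together with WT mice 1 and 3 was added after seeing the data. For neighbouring pairs, an arm that the RefSeq table lacks was matched to its hairpin by name.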

Additional observations from a re-analysis of the deposited data

Results flagged for a closer look

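A value far from the other 4 mice of its genotype was looked for in 14 groups of 5 mice (4 arms and 3 ratios in each genotype), as a gap, in log2 units, to the nearest mouse that exceeded 0.71 of the range of its group. Chance flags about 1 in 20 such groups, or 0.7 of 14, and 3 were found, which share a mouse and an arm and are not independent. All were PiZ mouse 5 among the PiZ mice. It was highest for miR-191-5p (gap 0.722 of the range) and lowest for miR-425-3p (0.837). It was highest for the ratio of the 5p to the 3p arm of miR-425 (0.764), which holds the same 8 reads of the 3p arm as the second. The flag of miR-191-5p is just over the limit and rests on TMM scaling. As unscaled shares of reads, miR-191-5p was 1.099% in PiZ mouse 5 and 0.6957% to 0.8279% in the other PiZ mice. On those shares the gap lies under 0.71 of the range.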

How the results depend on the processing

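No arm passed 0.05 between PiZ and WT under any alternative run, the lowest adjusted p being 0.203 (miR-425-5p without WT mice 1 and 3 and PiZ mouse 5, edgeR). No paired analysis was possible because the numbers after "rep" name technical runs of 1 library and the mouse numbers of the 2 genotypes name different animals. The arms' log2 fold changes were near 0, and their signs turned in places. miR-191-5p turned in the shorter list alone (0.18). miR-425-5p turned with upper-quartile scaling (-0.048) and in the longer list alone (-0.24). miR-191-3p turned with library totals only (0.0015), without the file list term (0.0035) and in run 1 alone (0.19), and miR-425-3p in run 2 alone (0.25) and without WT mice 1 and 3 and PiZ mouse 5 (0.047). With each mouse left out in turn the ranges were -0.33 to -0.099 for miR-191-5p, -0.092 to 0.14 for miR-425-5p, -0.37 to 0.11 for miR-191-3p and -0.46 to 0.043 for miR-425-3p. Upper-quartile scaling moved the median log2 fold change of all tested microRNAs from 0.063 to -0.095, so the turn of miR-425-5p is within that shift. The 3p arms were not tested in the stricter filter, and not in the longer list alone.

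The difference in the log2 ratio of miR-191-5p to miR-425-5p ranged from -0.39 (without PiZ mouse 5) to -0.13 over mice left out, and was -0.47 without WT mice 1 and 3 and PiZ mouse 5. That of the arms of miR-191 turned with a pseudocount of 5 (0.12), in run 2 alone (0.36), in the shorter list alone (0.35) and without WT mice 1 and 3 (0.14), and ranged from -0.38 to 0.079 over mice left out. That of the arms of miR-425 was 0.92 in run 1 alone, under 0.05 only before adjustment over the 3 ratios (exact two-sided permutation test, p = 0.0317). In that run the 3p arm had 3 to 25 reads per library. Over mice left out the difference ranged from 0.14 to 0.72. The correlation of the 5p arms passed with library totals only (r = 0.636, permutation p = 0.0488), turned without WT mice 1 and 3 and PiZ mouse 5 (-0.21) and ranged from 0.313 to 0.608 over mice left out. Without those 3 mice, the highest for miR-191-5p, its SD was 0.117 in place of 0.305. The count of 31 changed microRNAs was 83 with no filter, 8 with a filter of 10 CPM, 50 in DESeq2, 7 in limma-voom, 17 without the file list term, 0 in the shorter list alone (54 at an unadjusted p under 0.05, edgeR), 18 in run 2 alone, 0 without WT mice 1 and 3 (104 at an unadjusted p under 0.05, edgeR), 100 without these and PiZ mouse 5, and 5 (without WT mouse 4) to 46 (without PiZ mouse 5) over mice left out. It fell by over 1.5 times without each mouse but PiZ mouse 5. Some of these settings tested fewer mice, reads or microRNAs, and the cause of the changes in the count was not tested. Depth limits the 3p arms most, where 1 read was worth 0.0928 to 0.765 CPM.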

Other observations

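The 2 runs of each library were compared against counting error, which a high read number makes small. Over 10 libraries, chi-square per degree of freedom between runs was 2.43 for miR-191-5p and 2.31 for miR-425-5p, ranks 11 and 15 from the largest of 336, where the median was 0.956. Neither passed after adjustment over all 336 (adjusted p = 0.232 for both; 8 microRNAs, 2.38%, passed). For miR-425-5p the largest difference between runs was in WT mouse 5, with 487 and 602 reads, or 98.1 and 119 CPM unscaled by TMM. The SD between runs on the log2 scale was 0.126 for miR-425-5p and 0.0214 for miR-191-5p, against 0.277 and 0.305 between mice.

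The summed level of the 13 reference microRNAs was 62665 to 76176 CPM in PiZ and 87087 to 90478 CPM in WT liver, while 0 of 13 passed singly in edgeR. How many of all tested microRNAs have ranges apart between the genotypes was not counted, so this is a description. miR-26a-5p, named here after its values were seen, held most of the sum, with a mean of 52673 CPM.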
